A study of Mus musculus with 2 samples.

Results

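Chromatin immunoprecipitation followed by sequencing (ChIP-seq) recovers the DNA bound by one protein from sheared chromatin, and a peak is a stretch of genome called as enriched. The 386 peaks described here were wider than 200 bp and lay outside the chromosome segments in which peaks are dense. They were chosen by peak width and position from the deposited peak list for Pwp1 in mouse embryonic stem cells, which holds 5639 peaks. The series consists of 1 Pwp1 ChIP library and 1 input DNA library from E14.1 cells, an established line grown on gelatin with serum and LIF. The immunoprecipitation used an anti-Pwp1 antibody, and the input is chromatin without it. No genetic change or treatment separates the libraries.

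Pwp1 is a nuclear protein built of WD repeats, a fold that often serves as a platform for other proteins. It is known for its part in ribosome production, including transcription of the ribosomal RNA genes. LIF is the cytokine that holds these cells undifferentiated, and its signal passes through Stat3, which the title of the series names.

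The segments searched were the whole of chromosomes 2, 3, 7, 8, 9, 10, 12, 13 and 15 to 19, and the parts of chromosomes 4, 5, 6 and 14 with peak centres below 117, 103, 108 and 69 Mb. The rule left out chromosomes 1 and 11, X and Y and the distal parts of chromosomes 4, 5, 6 and 14. The 17 segments held 3382 peaks, of which 386 were wide (11.4%, exact 95% interval 10.4 to 12.5) and 2996 were 200 bp or less. In the whole list 973 peaks (17.3%) passed the same width. Of the others, 586 lay among the 2233 peaks of the autosomal segments left out and 1 lay on X or Y. The list carries no height, score or read count, and there is no replicate, so depth is unknown and intervals cover counting error only. They treat peaks as independent, which neighbouring peaks may not be, so they can be too narrow.

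The widths of the 386 peaks formed the upper tail of the widths in these segments and no separate class. Their median was 223 bp with quartiles of 211 and 242 bp, and they spanned 201 to 414 bp. Their mean was 233 ± 30.5 bp (SD over peaks). Width chose these peaks, so their widths are a description with no test. The narrower peaks of the same segments had a median of 165 bp and quartiles of 122 and 167 bp, and 973 of the 3382 peaks (28.8%) were exactly 167 bp wide. No width was shared to that degree among the wide peaks: the commonest, 218 bp, was held by 15 of them (3.89%), and they took 101 different widths. Together the wide peaks covered 89.7 kb, which was 16.8% of the 534.6 kb covered by all peaks of these segments.

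The threshold of 200 bp fell at no gap in the widths. Of the peaks on either side of it, 103 were 191 to 200 bp wide and 89 were 201 to 210 bp wide. There were 13 peaks of exactly 200 bp, the first 3 in genome order on chromosome 2 at 37,556,206 to 37,556,405, 92,076,405 to 92,076,604 and 129,187,818 to 129,188,017 of mm9. Of the 12 peaks of 201 bp, the first 3 were at 27,330,670 to 27,330,870 and 172,113,945 to 172,114,145 of chromosome 2 and at 45,934,615 to 45,934,815 of chromosome 4. The number of peaks declined from 85 at 211 to 220 bp to 24 at 241 to 250 bp, and 17 peaks (4.40%) were wider than 300 bp.

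**Figure D1:**
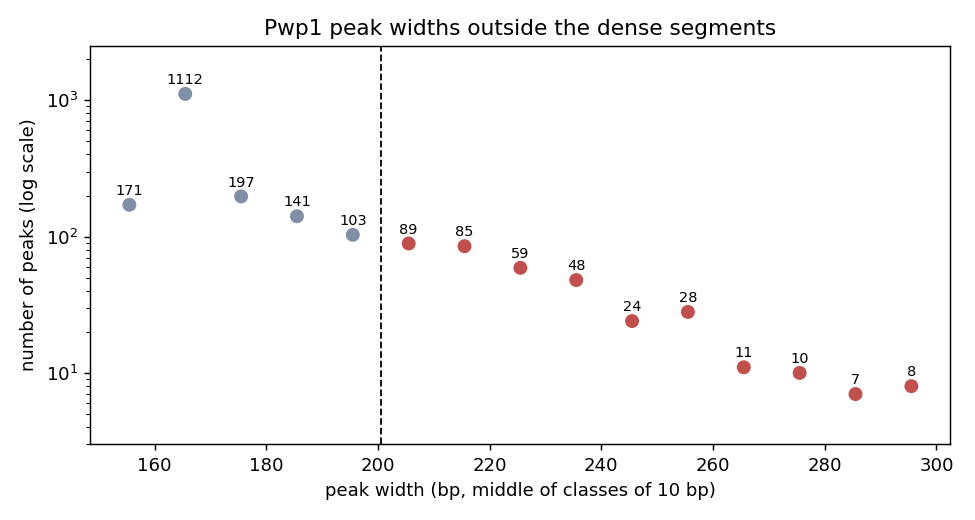
Number of peaks (vertical axis, log scale) in classes of 10 bp of peak width (horizontal axis, from 151 to 300 bp) in the 17 segments; red points are peaks wider than 200 bp, grey points narrower ones, and the dashed line marks the threshold. The class from 161 to 170 bp holds 1112 peaks, and the counts on either side of the threshold are 103 and 89; peaks narrower than 151 bp and the 17 wider than 300 bp are not drawn.

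The wide peaks were narrower than those above 200 bp in the autosomal segments left out by the rule. There the median was 242 bp with quartiles of 218 and 284 bp, and the widest reached 976 bp. The share above 250 bp was 21.0% (81 of 386) in the segments described here and 42.3% (248 of 586) in those left out. In the segments left out, 26.2% of peaks exceeded 200 bp (exact 95% interval 24.4 to 28.1), against 11.4% here. Earlier results on the same list had shown wider peaks in the dense segments, so these values are given as a description.

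The widest of the 386 peaks lay on chromosome 17 at 4,626,216 to 4,626,629 of mm9 and spanned 414 bp. It had 1 other peak within 500 kb, and their centres were 312 kb apart. The second, of 369 bp, lay on chromosome 3 at 93,627,455 to 93,627,823, and 35.0 kb separated it from a peak of 176 bp. The third and the fifth in width were a pair on chromosome 17, of 351 bp at 27,460,375 to 27,460,725 and of 334 bp at 27,449,413 to 27,449,746. Their centres were 11.0 kb apart, and each was the nearest peak of the other. The fourth was a peak of 335 bp on the same chromosome, at 36,213,374 to 36,213,708. Chromosome 17 therefore held 4 of the 5 widest of these peaks, while its median for wide peaks was 235 bp and its share of wide peaks (11.7%) was near that of all segments.

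The other peaks among the 10 widest were spread over 4 chromosomes. They were a peak of 326 bp at 108,514,631 to 108,514,956 of chromosome 8, one of 320 bp at 7,230,680 to 7,230,999 of chromosome 7, one of 319 bp at 23,936,197 to 23,936,515 of chromosome 19, one of 318 bp at 111,174,560 to 111,174,877 of chromosome 9 and one of 314 bp at 20,320,615 to 20,320,928 of chromosome 7. The number of other peaks within 500 kb of the 10 widest ranged from 1 to 7. Whether these positions lie in genes, promoters or repeats was not analysed here, since no annotation or sequence of mm9 was used, and no sequence is printed for the same reason.

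Wide peaks occurred on each of the 17 chromosomes, and no chromosome stood far above the rest. Chromosome 2 held 50 of them, chromosome 7 held 36, chromosome 8 held 32, chromosome 9 held 30 and chromosome 3 held 29. Chromosomes 10 and 17 held 24 each, chromosome 13 held 23, chromosome 12 held 22, chromosome 16 held 19, and chromosome 19 and proximal chromosome 6 held 17 each. The fewest were on chromosomes 15 (16), proximal 14 (14), 18 (13), proximal 4 (12) and proximal 5 (8). Relative to the stretch between the outermost peaks of each segment, this was a median of 0.201 wide peaks per Mb, from 0.0811 on proximal chromosome 5 to 0.294 on chromosome 19.

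As a share of the peaks of a chromosome, wide peaks ranged from 5.84% (8 of 137) on proximal chromosome 5 to 13.4% (50 of 374) on chromosome 2, with a median of 11.8%. The exact 95% intervals of 16 of the 17 chromosomes included the pooled 11.4%. Proximal chromosome 5 was the exception, with an interval of 2.55 to 11.2%. With 17 intervals read side by side and none adjusted for their number, this exception is given as a value only. The rule had also cut the distal parts of chromosomes 4, 5, 6 and 14, and wider peaks were already known in the dense segments. The shares and the numbers per Mb depend on the width threshold and on these limits, so they are a description. Chromosome 15 (16 of 200 peaks), proximal chromosome 4 (8.33%) and chromosome 18 (8.55%) were the next lowest, and their intervals reached 12.7%, 14.1% and 14.2%. The median width of the wide peaks differed little by chromosome, from 213 bp on proximal chromosome 4 to 235 bp on chromosome 17. The widest peak of a chromosome ranged from 266 bp on chromosome 15 to 414 bp on chromosome 17.

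**Figure D2:**
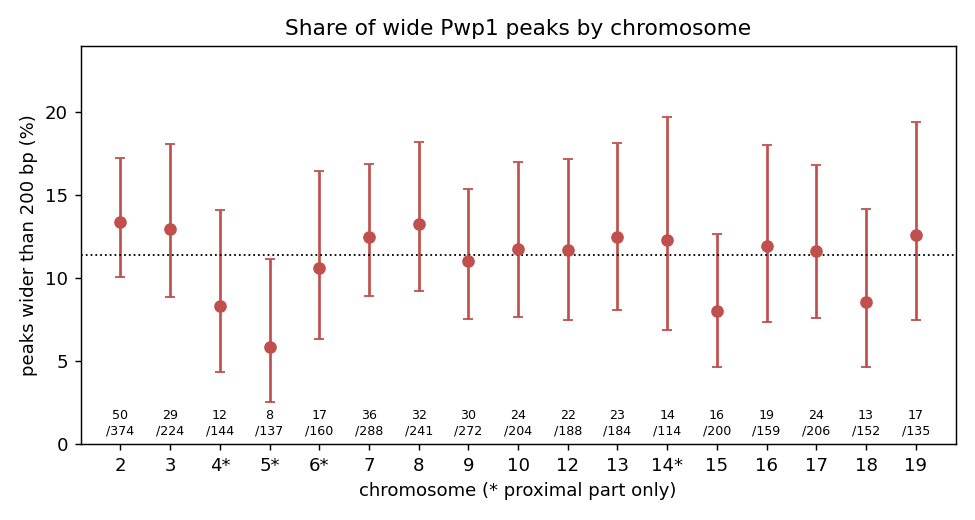
Share of peaks wider than 200 bp (vertical axis, %) on each of the 17 chromosomes (horizontal axis; an asterisk marks those of which the proximal part was used); bars are exact 95% intervals, the dotted line is the pooled 11.4%, and the numbers give wide peaks over all peaks. The shares lie between 5.84 and 13.4%, and the bar of proximal chromosome 5 alone ends below the line.

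Along the chromosomes, no difference in position between wide and narrower peaks exceeded counting error. In the first 10 Mb after the first peak of a chromosome lay 29 wide peaks (7.51%) and 251 narrower ones (8.38%), against 8.28% of all peaks of the segments. The difference, wide minus narrower, was -0.86 percentage points (Newcombe 95% interval -3.33 to 2.34). When each segment was divided into 3 equal parts, 30.3%, 35.0% and 34.7% of the wide peaks lay in the first, middle and last part. The narrower peaks gave 30.7%, 32.6% and 36.6%, and the interval of each difference included 0. The peaks above 250 bp gave another value in the first 10 Mb, 13.6% against 8.15% of all other peaks, a difference of 5.43 points whose interval (-0.48 to 14.6) also included 0.

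At close range the wide peaks had no detectable excess of neighbours. Another peak of the list had its centre within 10 kb for 25 of the 386 wide peaks (6.48%) and for 187 of the 2996 narrower ones (6.24%), against 6.27% of all peaks of the segments. The difference was 0.24 percentage points (Newcombe 95% interval -2.01 to 3.26). Within 5 kb the counts were 8 (2.07%) and 91 (3.04%), a difference of -0.96 points (-2.19 to 1.08). Within 1 kb they were 3 and 21.

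The 25 wide peaks with such a neighbour lay on 11 chromosomes. Beside 21 of them lay a narrower peak, of 98 to 198 bp, and 2996 of all 3382 peaks of the segments were narrower. The other 4 of the 25 formed the 2 pairs of wide peaks within 10 kb of each other. On chromosome 12 a peak of 230 bp at 112,215,864 to 112,216,093 and one of 241 bp at 112,216,631 to 112,216,871 had centres 0.772 kb apart. On chromosome 2 a peak of 229 bp at 164,961,469 to 164,961,697 and one of 206 bp at 164,963,242 to 164,963,447 were 1.76 kb apart. The closest neighbour of any wide peak was a narrower peak of 98 bp on chromosome 18, 0.470 kb from a wide peak at 80,629,670 to 80,629,906.

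At intermediate range, neighbours were more frequent for the wide peaks than for all narrower ones pooled, but at 50 kb the peaks just below the threshold had the same share. Within 50 kb, 125 wide peaks (32.4%) and 795 narrower peaks (26.5%) had a neighbour, against 27.2% of all peaks of the segments. This difference was 5.85 percentage points (Newcombe 95% interval 1.09 to 10.9). The share did not change detectably at the threshold: it was 32.4% (exact 95% interval 26.5 to 38.6) for the 244 narrower peaks of 181 to 200 bp. For the 174 wide peaks of 201 to 220 bp it was 31.0% (24.3 to 38.5). The remaining wide peaks gave 36.6% (28.4 to 45.5) for the 131 of 221 to 250 bp and 28.4% (18.9 to 39.5) for the 81 above 250 bp. All other classes of narrower peaks lay between 24.7% and 28.2%. Within 200 kb the difference between wide and narrower peaks was 8.09 points (3.13 to 12.6), at 72.5% and 64.5%. Within 500 kb it was 4.88 points (1.42 to 7.63), at 91.2% and 86.3%. The differences within 20 kb (2.87 points, -0.45 to 6.84) and within 100 kb (4.62 points, -0.64 to 9.90) had intervals that included 0. Each longer distance also counts the neighbours of the shorter ones, so the distances are not separate results. Their intervals are not adjusted for the number of distances compared. The 50 kb share was higher for the wide peaks on 11 of the 17 chromosomes, among which chromosome 12 gave 40.9% against 22.3% and chromosome 10 the opposite, 16.7% against 26.1%.

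**Figure D3:**
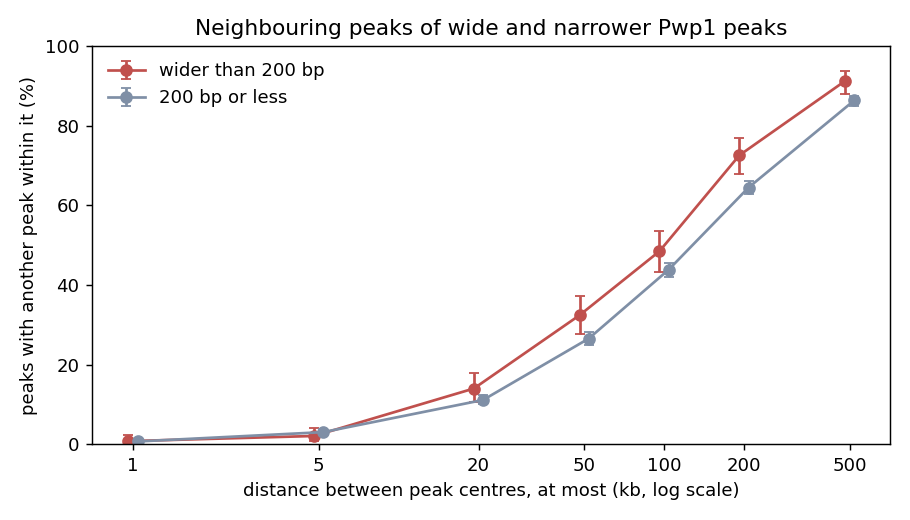
Share of peaks (vertical axis, %) with the centre of another peak within the distance on the horizontal axis (kb, log scale), for the 386 peaks wider than 200 bp (red) and the 2996 of 200 bp or less (grey); bars are exact 95% intervals, and points are set slightly apart for legibility. The sets lie together up to 5 kb and differ most at 200 kb, with 72.5% and 64.5%.

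The median distance to the nearest peak was 103 kb for wide peaks (exact 95% interval of the median 93.5 to 115) and 121 kb for narrower ones (114 to 128), so these intervals overlapped slightly. Without the narrower peaks of 130 bp or less, the median of the narrower set was 113 kb, inside the interval of the wide peaks. The upper quartiles were 218 and 300 kb, and the lower quartiles 38.1 and 46.0 kb. The longest distance was 1.82 Mb for a wide peak and 5.91 Mb for a narrower one. The most isolated wide peak, named after its value was seen, lay on chromosome 7 at 63,146,056 to 63,146,312 and was 257 bp wide.

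The number of other peaks within 500 kb was taken from the same distances, so it is another view of them and no separate support. It averaged 3.39 ± 2.37 for wide peaks and 2.86 ± 2.26 for narrower ones (SD over peaks), with a median of 3 in both sets, so single peaks overlapped widely. The difference of the means was 0.54 peaks (95% interval by normal approximation 0.29 to 0.79). Peaks with overlapping windows share neighbours, so this interval in particular can be too narrow. No other peak lay within 500 kb of 34 wide peaks (8.81%) and of 410 narrower ones (13.7%), which restates the 500 kb shares given above. With the mean of each chromosome subtracted, a choice made after seeing the data, the difference was 0.50 (0.27 to 0.74). That step leaves density that varies within a chromosome as it is, and the cause of the difference was not tested. The mean number of other peaks within 500 kb was higher for wide peaks on 14 of the 17 chromosomes, the exceptions being chromosomes 13, 15 and 19.

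By class of width, the local number was highest on average at 221 to 250 bp and lower above 250 bp, but the intervals of these classes overlapped. It averaged 2.58 for the 987 peaks of 58 to 130 bp, 2.92 for those of 131 to 166 bp and 3.03 at 167 bp. The averages were 2.92 at 168 to 180 bp and 3.05 (95% interval 2.77 to 3.33) at 181 to 200 bp. Among the wide peaks it was 3.34 at 201 to 220 bp, 3.69 (95% interval 3.25 to 4.12) at 221 to 250 bp and 3.01 (2.52 to 3.50) above 250 bp. The 81 peaks above 250 bp thus differed from all others by 0.10 peaks, with an interval from -0.40 to 0.59. That interval includes 0 and also the 0.54 of all wide peaks, so these peaks cannot show whether the number rises or falls at larger widths. When narrower peaks of 130 bp or less were left out, the difference between wide and narrower peaks was 0.40 (0.15 to 0.66). Read the other way, wide peaks made up 7.66% (exact 95% interval 5.36 to 10.5) of the 444 peaks with no other peak within 500 kb. They made up 10.2% (8.60 to 12.1) of those with 1 or 2 and 11.2% (9.32 to 13.3) with 3 or 4. With 5 or 6 it was 16.8% (13.5 to 20.5) and with 7 to 14 it was 14.4% (10.4 to 19.2), against 11.4% of all peaks of the segments.

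**Figure D4:**
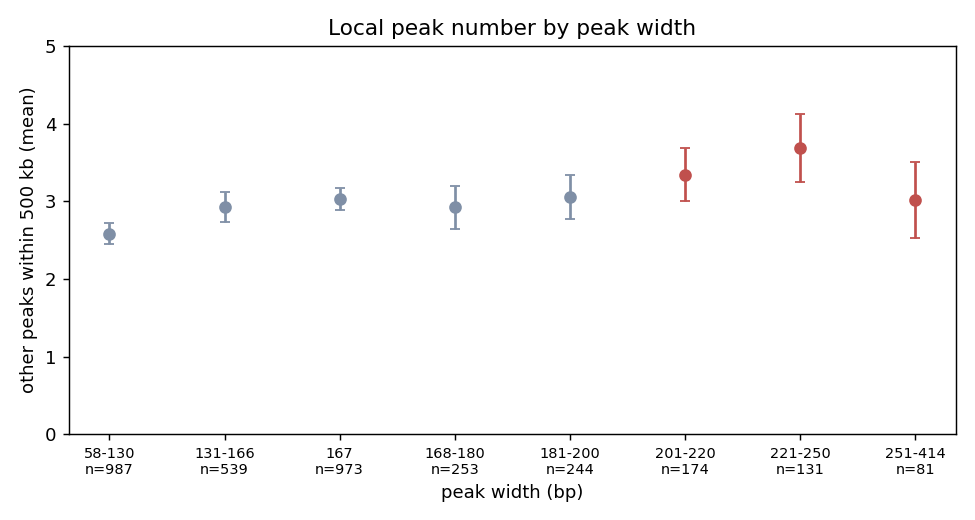
Mean number of other peaks within 500 kb (vertical axis) for 8 classes of peak width (horizontal axis, bp, with the number of peaks n); bars are 95% intervals of the mean by normal approximation, red classes are wider than 200 bp and grey ones narrower. The mean is lowest, 2.58, in the narrowest class, highest, 3.69, at 221 to 250 bp, and 3.01 in the widest class.

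Wide peaks did not detectably sit next to one another. The nearest peak inside the segments was itself wide for 46 wide peaks (11.9%) and for 321 narrower ones (10.7%), against 10.9% of all peaks of the segments. The difference was 1.20 percentage points (Newcombe 95% interval -1.89 to 4.97). In genome order 306 of the 386 wide peaks had a narrower peak or the end of the segment on both sides. The other 80 formed 27 runs of 2, 6 runs of 3 and 2 runs of 4. Only 11.4% of all peaks of the segments were wide, so these counts describe the order and are no sign of isolation.

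Consecutive wide peaks of a chromosome were a median of 2.23 Mb apart, with quartiles of 0.812 and 6.43 Mb and a range from 0.772 kb to 34.0 Mb. They occupied 325 of the 1304 bins of 1 Mb that held any peak of the segments. In 278 of these bins there was 1 wide peak, in 38 there were 2, in 5 there were 3, in 3 there were 4 and in 1 there were 5. The fullest bins, named after their counts were seen, lay on chromosome 2 from 164 to 165 Mb (5 of 9 peaks wide), chromosome 3 from 95 to 96 Mb (4 of 8), chromosome 12 from 112 to 113 Mb (4 of 9) and chromosome 16 from 32 to 33 Mb (4 of 9). Of all peaks of the segments, 11.4% were wide. These bins were picked from the 1304 by their counts, and whether wide peaks group in bins more than narrower ones was not tested.

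The bin on chromosome 2 held the close pair given above and 3 further wide peaks, of 229 bp at 164,481,846 to 164,482,074, of 239 bp at 164,788,533 to 164,788,771 and again of 239 bp at 164,941,632 to 164,941,870. On chromosome 12 the close pair was joined by peaks of 273 bp at 112,287,867 to 112,288,139 and of 201 bp at 112,382,939 to 112,383,139. The bin on chromosome 16 included the widest peak of that chromosome, of 286 bp at 32,525,647 to 32,525,932, with one of 245 bp 18.4 kb from it. On chromosome 3 the 4 wide peaks were 206 to 230 bp wide and formed 2 groups, one pair 66.1 kb and the other 25.2 kb apart.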

How the data were processed

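The analysis used the peak list of the 1 Pwp1 ChIP library. The input library was not analysed here. The authors deposited 3 columns without a header (chromosome, start, end), so other kinds of value, such as a score, were not used. Per the submitters' processing notes, CASAVA 1.4, Bowtie 0.12.7, HOMER 4.3 and the mm9 build were used. Their roles, settings, the peak threshold and the use of the input were not stated there, and any of these could set the widths. Starts were read as counted from 0 and are printed counted from 1.

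Width was end minus start, and distances are between peak centres. Neighbours were counted over all 5639 peaks, also beyond a segment limit, except where the nearest peak inside the segments is named. Shares have exact Clopper-Pearson intervals, differences of shares Newcombe intervals, medians exact intervals from order statistics, and differences of means normal intervals, all at 95%. No p-value was computed, since there is 1 library. Computation used Python 3.11.15, numpy 2.4.6, pandas 2.3.3, scipy 1.17.1 and matplotlib 3.10.9, and was tested on simulated data. Apart from added close partners, the simulated peaks were placed at random along each chromosome. That test therefore does not show whether the intervals hold where peaks cluster. Peaks named were the 10 widest, pairs of wide peaks within 10 kb and the 3 on either side of the threshold; others were named after their values were seen. The members, lists and comparisons were chosen with earlier results of these data known. Location in genes, base composition and gene lists were planned but not analysed here, as the gene and promoter tables at hand are of GRCm38. Alternatives were other width thresholds, distances, merged peaks, fewer chromosomes and, chosen after seeing the data, a narrower comparison set and subtraction of chromosome means.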

Additional observations from a re-analysis of the deposited data

How the results depend on the processing

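Of 46 recomputed values, 39 stayed inside the 95% interval of the reported value and 7 moved outside it. The share of wide peaks and the median distances cannot be negative, so only differences could change sign. The difference in peaks within 500 kb was the only recomputed difference whose reported interval excluded 0. It kept its sign, but for peaks above 250 bp its interval included 0 (-0.40 to 0.59). The share of wide peaks, 11.4%, was 18.6% for peaks above 180 bp and 2.40% above 250 bp, which follows from the threshold. With peaks above 250 bp, the difference in peaks within 500 kb fell from 0.54 to 0.10, and the difference in the first 10 Mb went from -0.86 to 5.43 percentage points. Only 81 peaks remained there, and the cause was not tested. Counting neighbours within 50 kb in place of 10 kb moved that difference from 0.24 to 5.85 points, and counting peaks within 2 Mb in place of 500 kb gave a difference of 1.38 peaks, a larger quantity because the window is wider. The difference within 10 kb, whose interval includes 0, was negative under some alternatives: -1.36 points above 250 bp, -0.96 within 5 kb, -0.41 without chromosome 2 and -0.01 over the 13 whole chromosomes. Without narrower peaks of 130 bp or less, the median distance to the nearest peak in the narrower set moved from 121 to 113 kb, against 103 kb for the wide peaks, which that choice leaves as they are. The difference in wide nearest neighbours was -0.08 points without narrower peaks of 130 bp or less. The alternative promoter window was not run, because location in genes was not analysed. No paired analysis was possible because only 1 library has peaks. The limits set by depth were not examined, since the list holds no counts.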
